A study of Mus musculus with 10 samples.

Results

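The tumor necrosis factor (TNF) superfamily and its receptors were examined in pieces of WEHI-164 tumors. Members were chosen by gene symbol: those named Tnfsf or Tnfrsf with a number, and Tnf, Lta, Ltb, Ltbr, Cd40, Cd40lg, Cd27, Cd70, Fas, Fasl, Ngfr, Edar and Eda2r, without Tnfrsf4 and Tnfrsf18. This gave 42 members, 17 ligands and 25 receptors, of 35958 features in the table. WEHI-164 is a fibrosarcoma line of BALB/c mice. It was grown under the skin of wild-type female BALB/c mice, and all 10 tumors were sampled by surgery while untreated, before a poly(I:C) hydrogel was placed in the cavity. The 5 responders later regressed completely, and the 5 non-responders grew without delay. The comparison asked which members differed, before treatment, between tumors with opposite later outcomes.

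RNA from each tumor was sequenced and quantified as estimated counts per gene. Totals ran from 16002949 to 31160790 estimated counts in responders (median 25627675) and from 19863863 to 28276142 in non-responders (median 22757833). Levels are given as CPM (counts scaled to a common library total), normalized between tumors by the trimmed mean of M-values (TMM). Each tumor came from 1 mouse, and tumors keep their numbers from the labels: responders 5, 9, 10, 11 and 12, and non-responders 1, 2, 3, 6 and 7. Values by tumor are always given in that order. The label of a fibrosarcoma was checked against markers. Vim, the mesenchymal intermediate filament, ran from 4243 to 5619 CPM. Of 8 epithelial genes, Epcam, Krt5, Krt14, Krt1 and Krt15 did not pass the filter on low counts, with Krt1 at 0 in every tumor, while Cdh1 (4.13 to 7.06 CPM), Krt10 (2.29 to 3.67 CPM) and Trp63 (1.36 to 4.1 CPM) passed. Responder 5 stood apart from the other responders in its lymphocyte genes. Its NK cell markers, mostly granzyme and perforin genes that cytotoxic T cells share, summed to 46.7 CPM, against 175 to 312 CPM in the other 4 responders and 41.7 to 97.4 CPM in non-responders. The counts over members, and several members on which it bears, are therefore also given without this tumor.

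Ligands of the TNF superfamily are mostly trimeric proteins on the cell surface, and many can be shed in soluble form. Their receptors fall into those with a death domain, which can engage caspases, and those that bind TRAF adaptors and drive NF-κB and MAP kinase signaling. In tumors, the family includes cytotoxic effectors of T and NK cells, costimulatory receptors of activated lymphocytes, and receptors that stromal and malignant cells carry themselves.

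Of the 42 members, 37 passed the filter on low counts, 14 ligands and 23 receptors, and could be tested. Cd40lg (1 to 19 counts per tumor), Tnfsf15 (3 to 13 counts), Cd70 (0 to 3 counts), Edar (0 to 1 count) and Tnfrsf17 (0 to 1 count) did not. Per length of transcript, receptors spanned a wider range than ligands. Tnfrsf12a, the receptor for TWEAK, had a mean level of 216 CPM per kb over the 10 tumors. Tnfrsf1a, the ubiquitous TNF receptor with a death domain, followed with 53.2 CPM per kb. Ltbr, the lymphotoxin beta receptor, had 38.8 CPM per kb, Tnfrsf1b, the second TNF receptor, 31.5 CPM per kb, and Tnfrsf9, the costimulatory receptor 4-1BB, 23.1 CPM per kb. The ranges of Tnfrsf12a and Tnfrsf1a over tumors did not touch, while those of Ltbr and Tnfrsf1b overlapped. Among ligands, Tnfsf12 (TWEAK) had 14.4 CPM per kb and Tnfsf9 (4-1BB ligand) 11.6 CPM per kb, with overlapping ranges. Ltb had 4.82 CPM per kb and Tnf 3.72 CPM per kb. Tnfsf18, the ligand of GITR, was at the lower end with 0.11 CPM per kb.

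**Figure D1:**
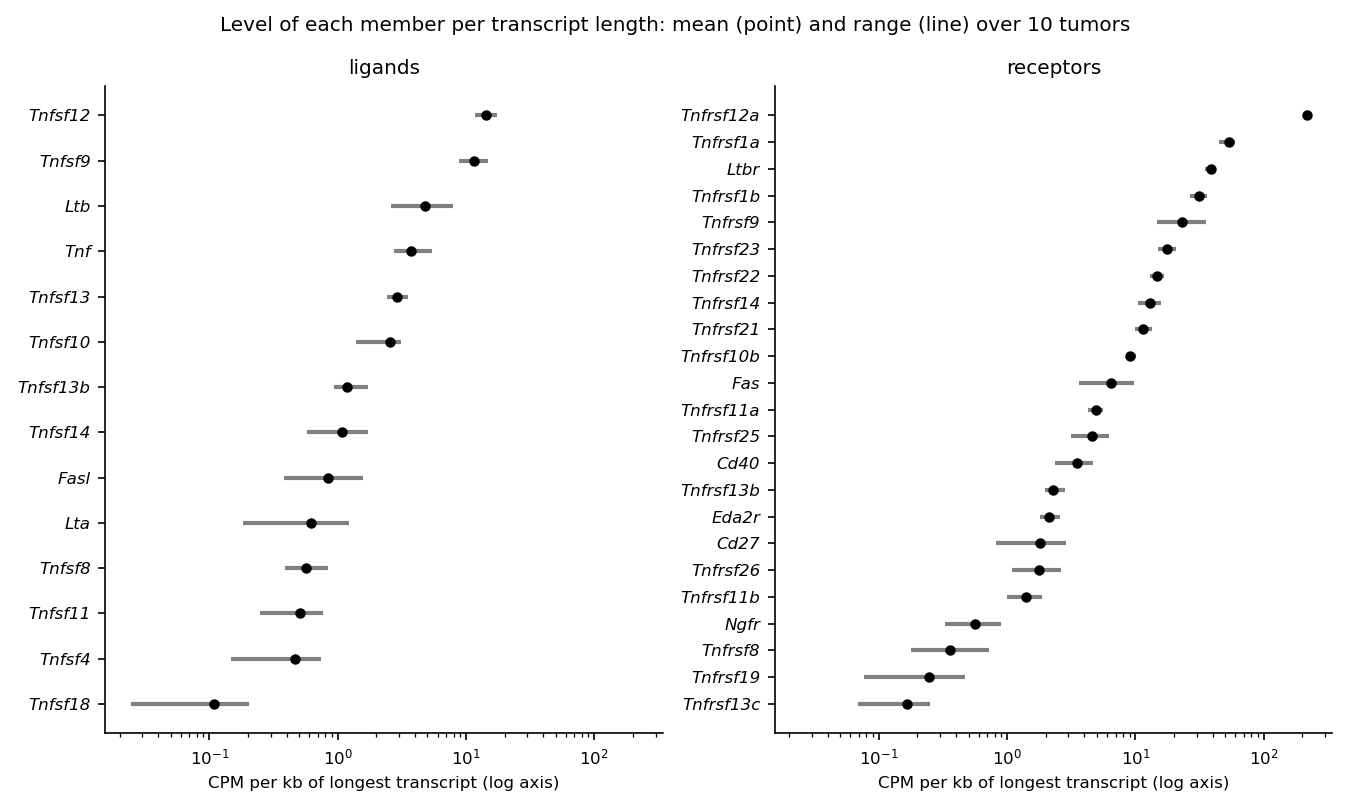
Mean level (point) and range over the 10 tumors (line) of the 14 ligands (left) and 23 receptors (right) past the filter, in CPM per kb of the longest transcript on a log axis. Receptors run from 0.166 CPM per kb for Tnfrsf13c to 216 for Tnfrsf12a, and ligands from 0.11 for Tnfsf18 to 14.4 for Tnfsf12.

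No member passed the test between responders and non-responders at an adjusted p of 0.05 (edgeR's quasi-likelihood test, Benjamini-Hochberg over 15767 features), and neither did any other feature (0.0% of those tested). DESeq2 called 1 feature, which was not a member, and limma-voom called 0. At an unadjusted p under 0.05 there were 1294 features (8.21%), 663 of them higher in responders (4.2%) and 631 lower (4.0%). Among members, 5 of 14 ligands and 5 of 23 receptors met this looser limit with higher means in responders, and 1 receptor with a lower mean. These counts depended on single tumors: ligands with an unadjusted p under 0.05 numbered 3 without responder 9, 10 or 11 or without non-responder 7, and receptors numbered 2 without responder 11 and 3 without responder 10 or non-responder 7. Without responder 9 or 10, Tnfsf18 did not pass the filter and was not tested. Of all features, 5.53% met the limit without responder 9, 6.85% without responder 10, 5.34% without responder 11 and 5.94% without non-responder 7. Without non-responder 1 they numbered 7 ligands and 8 receptors, beside 9.78% of all features. A log2 fold change above 0 was found in 12 of 14 ligands and in 17 of 23 receptors, against 48.6% of all features. The median log2 fold change was 0.31 over ligands and 0.10 over receptors, against -0.0036 over all features. These shares describe members that passed the filter. Tnfsf18 passed it through 3 responders and no non-responder, and Tnfrsf13c through 3 responders and 1 non-responder. In bulk tissue, fewer cells of a type and less RNA per cell cannot be told apart, for any of these values.

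**Figure D2:**
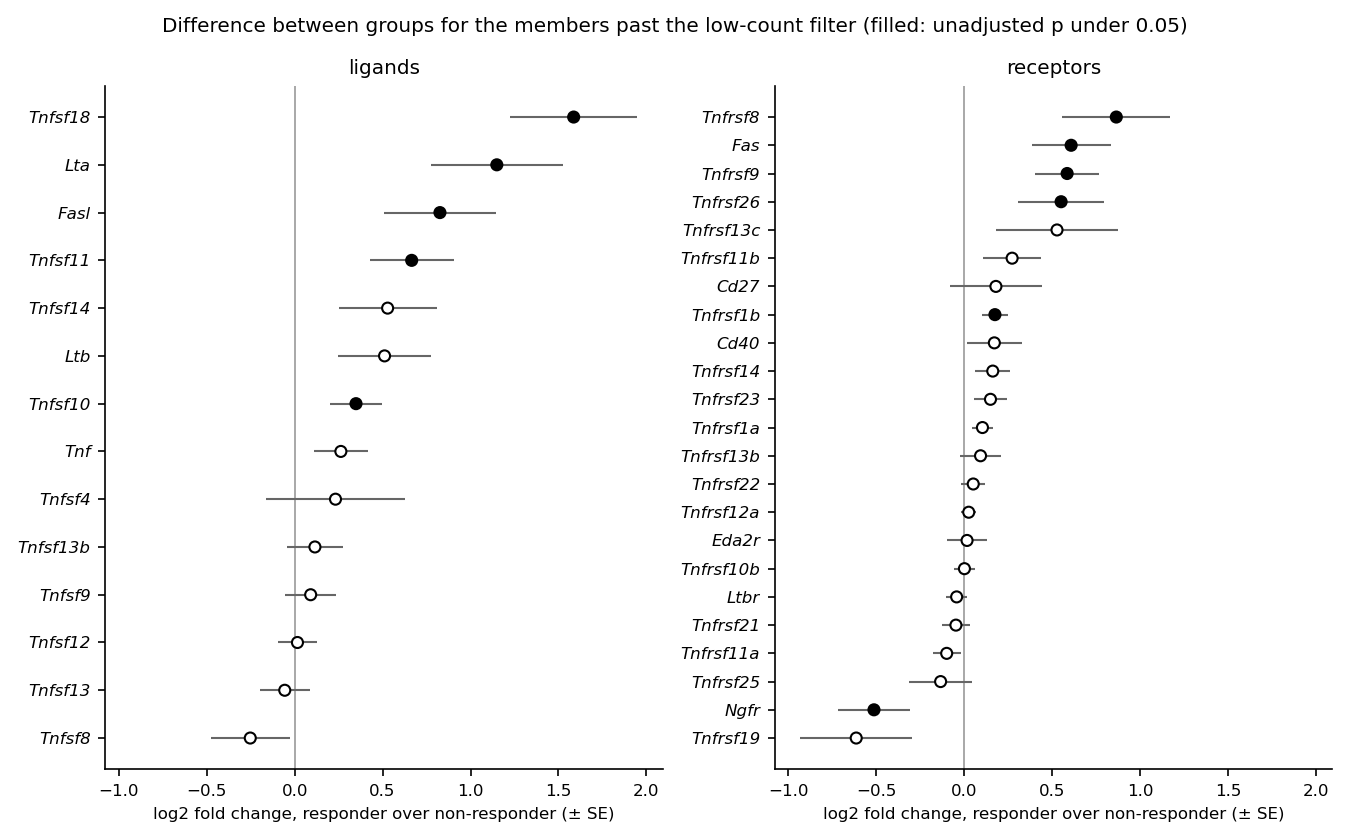
Log2 fold change of responders over non-responders (point) with its standard error (line) for the 14 ligands (left) and 23 receptors (right) past the filter. Filled points are the 11 members with an unadjusted p under 0.05, of which only Ngfr lies below 0, and none passed after adjustment.

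The TNF and lymphotoxin genes form 1 block of 10.9 kb on chromosome 17 (chr17:35194439-35205351, GRCm38), in the order Ltb, Tnf, Lta, and all 3 had higher means in responders. Lta encodes lymphotoxin alpha, a product of activated lymphocytes. Lta had 0.427, 1.69, 1.13, 1.59 and 1.11 CPM in responders and 0.792, 0.679, 0.252, 0.542 and 0.352 CPM in non-responders. The responders other than tumor 5 lay above every non-responder, and responder 5 fell within the range of non-responders. Mean Lta was 1.19 ± 0.501 CPM (SD, n = 5) in responders and 0.523 ± 0.224 CPM (SD, n = 5) in non-responders, a log2 fold change of 1.15 (SE 0.37, adjusted p = 0.580). It rested on 5 to 49 counts per tumor. Without responder 5 the log2 fold change was 1.37 (SE 0.30, adjusted p = 0.0882, within a range of 0.0882 to 0.879 over all alternatives).

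Ltb, the membrane partner that forms heterotrimers with lymphotoxin alpha, had 3.69, 9.69, 8.73, 11.3 and 6.75 CPM in responders and 7.31, 3.75, 5.39, 7.0 and 4.77 CPM in non-responders. Responders 9, 10 and 11 were above all non-responders and responder 5 below them. Mean Ltb was 8.03 ± 2.93 CPM (SD, n = 5) in responders and 5.64 ± 1.5 CPM (SD, n = 5) in non-responders, a log2 fold change of 0.51 (SE 0.26, adjusted p = 0.631). Without responder 5 it was 0.70 (SE 0.20, adjusted p = 0.147), with adjusted p from 0.147 to 0.888 over all alternatives. Tnf itself, the inflammatory cytokine of macrophages and lymphocytes, had 6.29, 7.32, 6.22, 8.91 and 4.49 CPM in responders and 5.99, 5.4, 5.89, 5.46 and 5.01 CPM in non-responders. Responders 5, 9, 10 and 11 were above every non-responder and responder 12 below every one. Mean Tnf was 6.65 ± 1.62 CPM (SD, n = 5) in responders and 5.55 ± 0.397 CPM (SD, n = 5) in non-responders, a log2 fold change of 0.26 (SE 0.15, adjusted p = 0.680), which was 0.13 without responder 11 and 0.38 without responder 12.

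Of the death ligands, Fasl, which cytotoxic lymphocytes use to kill cells that carry Fas, had 0.738, 2.56, 2.47, 3.06 and 1.65 CPM in responders and 1.63, 1.07, 1.16, 1.17 and 0.861 CPM in non-responders. Responders 9, 10, 11 and 12 exceeded all non-responders, tumor 12 by a small margin over non-responder 1, and responder 5 had the lowest value of the 10 tumors. For Fasl the mean was 2.1 ± 0.912 CPM (SD, n = 5) in responders and 1.18 ± 0.281 CPM (SD, n = 5) in non-responders, a log2 fold change of 0.83 (SE 0.32, adjusted p = 0.586). Without responder 5 it was 1.05 (SE 0.23, adjusted p = 0.0835, within a range of 0.0835 to 0.879 over all alternatives). Tnfsf10, which encodes TRAIL, had 15.7, 15.3, 14.2, 14.1 and 12.4 CPM in responders and 14.2, 6.93, 12.4, 11.9 and 11.1 CPM in non-responders. Here responder 5 was the highest tumor, non-responder 2 the lowest, and the groups overlapped. For Tnfsf10 the mean was 14.3 ± 1.26 CPM (SD, n = 5) in responders and 11.3 ± 2.7 CPM (SD, n = 5) in non-responders, a log2 fold change of 0.35 (SE 0.15, adjusted p = 0.591), which ran from 0.21 without non-responder 2 to 0.45 without non-responder 1.

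Tnfsf18 was the single member whose groups did not overlap, as in 0.926% of all features tested (0.336% with responders higher and 0.59% lower). It had 0.272, 0.375, 0.395, 0.260 and 0.422 CPM in responders and 0.132, 0.143, 0.0503, 0.135 and 0.0783 CPM in non-responders. Every responder, tumor 5 included, was above every non-responder. The number of such members was 5 without responder 5 (4.73% of all features), 4 without responder 12 (1.48%), 3 without non-responder 1 (2.41%) and 2 without non-responder 3 (2.57%). Without responder 12 the count still held Tnfsf18, which did not pass the filter in that fit and is not among the features of the share. These levels rest on 1 to 11 counts per tumor, and the gene passed the filter only because of responders, so that a difference was built into its being tested. Mean Tnfsf18 was 0.345 ± 0.0739 CPM (SD, n = 5) in responders and 0.108 ± 0.0411 CPM (SD, n = 5) in non-responders, a log2 fold change of 1.59 (SE 0.36, adjusted p = 0.580). Tnfsf18 lies at chr1:161494655-161505290, between Tnfsf4 (OX40 ligand) and Fasl in a cluster of 393 kb, and Tnfsf4 had a log2 fold change of 0.23 (SE 0.40, adjusted p = 0.906), which ran from 0.010 without non-responder 7 to 0.56 without non-responder 2.

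Tnfsf11, which encodes RANK ligand, the osteoclast differentiation factor, had 1.71, 1.5, 1.43, 1.5 and 0.844 CPM in responders and 1.1, 0.929, 0.554, 1.04 and 0.744 CPM in non-responders. Responders 5, 9, 10 and 11 were above all non-responders, whereas responder 12 fell among them. Mean Tnfsf11 was 1.4 ± 0.326 CPM (SD, n = 5) in responders and 0.873 ± 0.224 CPM (SD, n = 5) in non-responders, a log2 fold change of 0.67 (SE 0.24, adjusted p = 0.580), on 11 to 46 counts per tumor. Tnfsf9 and Tnfsf8 pair with costimulatory receptors described next. Tnfsf9 had 11.3, 18.2, 15.7, 19.0 and 13.0 CPM in responders and 14.2, 18.0, 14.0, 14.4 and 11.8 CPM in non-responders. Its groups overlapped from end to end, with a log2 fold change of 0.091 (SE 0.15, adjusted p = 0.899). Tnfsf8, the CD30 ligand, had 2.18, 2.44, 1.48, 2.21 and 1.5 CPM in responders and 1.58, 2.82, 3.22, 1.72 and 2.31 CPM in non-responders. Its mean was lower in responders, a log2 fold change of -0.25 (SE 0.22, adjusted p = 0.788), and the groups overlapped. Leaving out 1 tumor took it from -0.36 without non-responder 1 to -0.12 without non-responder 3, and Tnfsf9 from 0.0024 without responder 11 to 0.19 without responder 5. Tnfsf12, the ligand with the highest level per kb, had 17.7, 17.3, 22.3, 25.2 and 21.1 CPM in responders and 22.1, 21.2, 20.1, 22.7 and 16.7 CPM in non-responders. The groups overlapped throughout, with a log2 fold change of 0.016 (SE 0.11, adjusted p = 0.983), from -0.064 without responder 11 to 0.077 without responder 9. Of the ligands not given by tumor, Tnfsf14 (LIGHT) had a log2 fold change of 0.53, the B cell survival factor Tnfsf13b (BAFF) 0.12 (0.31 without non-responder 3 and 0.049 without non-responder 2), and its relative Tnfsf13 (APRIL) -0.056 (from -0.12 without non-responder 7 to 0.0098 without non-responder 3). The read-through gene Tnfsfm13 overlaps Tnfsf12 and Tnfsf13 on the same strand, so that counts of these may be split.

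**Figure D3:**
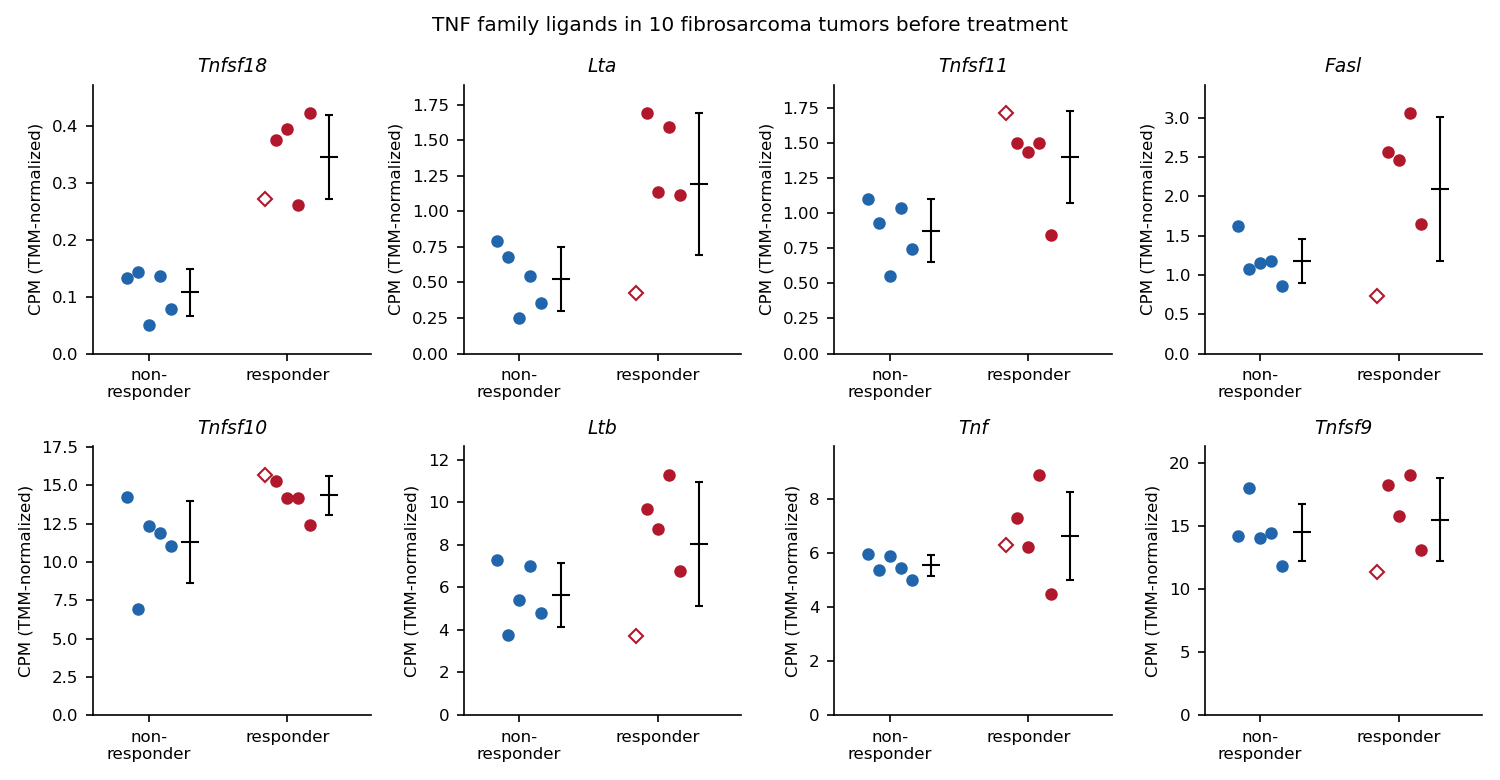
TMM-normalized CPM of 8 ligands in each tumor, with non-responders in blue, responders in red, responder 5 as an open diamond, and mean ± SD beside each group (n = 5). The groups are apart only for Tnfsf18, and responder 5 lies at or below the non-responder mean for Lta, Fasl and Ltb.

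Among receptors, Tnfrsf9 had the smallest unadjusted p. It encodes 4-1BB, which activated T and NK cells display and which costimulates them. Tnfrsf9 had 30.9, 70.1, 58.1, 75.5 and 58.6 CPM in responders and 44.9, 39.8, 41.0, 35.7 and 33.9 CPM in non-responders. Responders 9, 10, 11 and 12 stood above every non-responder, and responder 5 stood below every non-responder. Mean Tnfrsf9 was 58.6 ± 17.2 CPM (SD, n = 5) in responders and 39.0 ± 4.35 CPM (SD, n = 5) in non-responders, a 1.5-fold difference and a log2 fold change of 0.59 (SE 0.18, adjusted p = 0.580). Without responder 5 the log2 fold change was 0.75 (SE 0.10) and the adjusted p was 0.0302, the lowest in a range of 0.0302 to 0.879 over all alternatives. Responder 5 was singled out for its low lymphocyte genes and had the lowest Tnfrsf9 of the 10 tumors, so that leaving it out favors a difference in this gene, and the call is a description and not independent evidence. In that fit 9 of 15695 features were called (0.0573%). Among them was Gzmb, the granzyme of cytotoxic T and NK cells, with a log2 fold change of 1.72 (SE 0.23, adjusted p = 0.0302). Gzmb is the most abundant of the NK cell markers by which responder 5 was singled out, so that this call too is a description. Tnfrsf9 lies at chr4:150914562-150946102 and overlaps Camta1 on the opposite strand. Since the strand setting of the counting is not given in the sources used here, reads of the overlap may not be told apart.

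The promoter of Tnfrsf9 is shown because it had the smallest unadjusted p among receptors, and those of Fas and Lta because they are a receptor and a ligand with an unadjusted p under 0.05 whose windows also held matches. Each run holds the 250 bases before an annotated start (RefSeq, GRCm38.p6), read 5′ to 3′ on the strand of the gene. Capitals mark matches, on either strand, to 3 motifs chosen after the values were seen: the NF-κB letters (GGG, any 2 bases, then TTTCC), TTCNNNGAA (the STAT element GAS) and TGANTCA (AP-1). The windows are chr4:150927749-150927998 on the plus strand for the second annotated start of Tnfrsf9, chr19:34290409-34290658 on the plus strand for Fas and chr17:35205352-35205601 on the minus strand for Lta.
Tnfrsf9: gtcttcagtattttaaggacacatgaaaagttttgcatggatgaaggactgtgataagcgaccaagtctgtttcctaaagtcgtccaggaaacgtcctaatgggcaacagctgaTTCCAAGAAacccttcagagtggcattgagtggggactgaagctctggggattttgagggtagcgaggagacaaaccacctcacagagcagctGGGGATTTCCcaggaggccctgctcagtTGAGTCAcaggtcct
Fas: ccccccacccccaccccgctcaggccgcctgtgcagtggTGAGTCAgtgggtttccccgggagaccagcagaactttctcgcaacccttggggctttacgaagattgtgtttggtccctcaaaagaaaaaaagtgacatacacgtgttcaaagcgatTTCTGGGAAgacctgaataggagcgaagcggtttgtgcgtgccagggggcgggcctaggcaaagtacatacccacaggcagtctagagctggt
Lta: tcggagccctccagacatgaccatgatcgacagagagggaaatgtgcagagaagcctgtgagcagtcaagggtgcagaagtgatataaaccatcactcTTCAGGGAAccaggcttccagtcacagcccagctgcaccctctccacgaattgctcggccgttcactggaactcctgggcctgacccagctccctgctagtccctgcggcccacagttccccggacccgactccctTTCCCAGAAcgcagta

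The window at the first annotated start of Tnfrsf9 held none of the motifs. The Tnfrsf9 window shown held all 3, with the NF-κB letters 43 to 34 bases, the AP-1 letters 15 to 9 bases and the GAS letters 136 to 128 bases before the start. In Fas the AP-1 letters lay 211 to 205 bases and the GAS letters 93 to 85 bases before the start. Lta held GAS letters at 152 to 144 and at 16 to 8 bases. Windows were found for 32 members, 36 in all. The NF-κB letters occurred in 3 of the 36 (8.33%), in Ltb, Tnfrsf25 and Tnfrsf9, and in 1.41% of 32851 promoter windows of the genome. GAS letters occurred in 7 of 36 (19.4%, against 7.02% of all windows) and AP-1 letters in 6 of 36 (16.7%, against 6.75%). A match describes letters in a window and is not a measured binding site.

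Tnfrsf8, which encodes CD30, a receptor of activated lymphocytes, had 0.738, 1.38, 1.33, 2.47 and 1.92 CPM in responders and 1.01, 0.965, 0.604, 1.13 and 0.626 CPM in non-responders. The responders other than tumor 5 were above all non-responders. For Tnfrsf8 the mean was 1.57 ± 0.656 CPM (SD, n = 5) in responders and 0.867 ± 0.238 CPM (SD, n = 5) in non-responders, a log2 fold change of 0.87 (SE 0.31, adjusted p = 0.580), on 12 to 76 counts per tumor. Fas, the death receptor of Fasl, had 8.35, 14.9, 12.9, 15.8 and 11.4 CPM in responders and 13.7, 6.43, 8.1, 7.4 and 5.95 CPM in non-responders. Every responder was above non-responders 2, 3, 6 and 7, responder 5 by a small margin, and non-responder 1 lay among the responders. For Fas the mean was 12.7 ± 2.96 CPM (SD, n = 5) in responders and 8.32 ± 3.14 CPM (SD, n = 5) in non-responders, a log2 fold change of 0.61 (SE 0.22, adjusted p = 0.580). Without responder 5, Tnfrsf8 had a log2 fold change of 1.06 and Fas one of 0.73, neither of them called.

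Of the receptors for TNF and lymphotoxins, Tnfrsf1b, the TNF receptor of leukocytes and endothelium, had 111, 133, 135, 138 and 121 CPM in responders and 122, 114, 123, 105 and 101 CPM in non-responders. Responders 9, 10 and 11 were above all non-responders, with a small difference relative to the level. For Tnfrsf1b the mean was 128 ± 11.4 CPM (SD, n = 5) in responders and 113 ± 9.83 CPM (SD, n = 5) in non-responders, a log2 fold change of 0.18 (SE 0.072, adjusted p = 0.591). Without responder 5 it was 0.22 (SE 0.066, adjusted p = 0.171), with adjusted p from 0.171 to 0.879 over all alternatives. Tnfrsf1a had 123, 113, 117, 130 and 112 CPM in responders and 113, 108, 116, 120 and 96.4 CPM in non-responders. The groups overlapped, with a log2 fold change of 0.10 (SE 0.062, adjusted p = 0.684), from 0.061 without non-responder 7 to 0.14 without non-responder 6. Ltbr, which stromal and myeloid cells carry, had 83.4, 73.6, 86.4, 84.2 and 75.1 CPM in responders and 83.1, 84.0, 84.0, 89.4 and 74.6 CPM in non-responders. Its groups covered a shared range, with a log2 fold change of -0.043 (SE 0.059, adjusted p = 0.877), from -0.077 without non-responder 7 to -0.0072 without responder 9.

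Ngfr, the low-affinity neurotrophin receptor, was the receptor with a lower mean in responders and an unadjusted p under 0.05. Ngfr had 1.75, 1.56, 1.13, 1.3 and 2.19 CPM in responders and 2.02, 2.04, 1.81, 3.07 and 2.43 CPM in non-responders. Non-responders 6 and 7 were above all responders, and responders 5, 9, 10 and 11 were below all non-responders. Mean Ngfr was 1.59 ± 0.410 CPM (SD, n = 5) in responders and 2.27 ± 0.497 CPM (SD, n = 5) in non-responders, a log2 fold change of -0.51 (SE 0.21, adjusted p = 0.591). Tnfrsf19, a receptor of the same family without a ligand in the pairs used here, had a log2 fold change of -0.61 with an SE of 0.32, from -0.84 without responder 5 to -0.40 without non-responder 6. Tnfrsf26 had 3.5, 7.88, 7.7, 8.16 and 5.79 CPM in responders and 6.47, 5.4, 3.52, 3.39 and 3.6 CPM in non-responders. Responders 9, 10 and 11 were above all non-responders and responder 5 was within the range of non-responders. Mean Tnfrsf26 was 6.61 ± 1.97 CPM (SD, n = 5) in responders and 4.47 ± 1.39 CPM (SD, n = 5) in non-responders, a log2 fold change of 0.55 (SE 0.24, adjusted p = 0.597). Leaving out responder 5 gave 0.72 (SE 0.20, adjusted p = 0.141), with adjusted p from 0.141 to 0.879 over all alternatives. It lies within 78.2 kb of its close paralogs Tnfrsf22 and Tnfrsf23, decoy receptors for TRAIL with log2 fold changes of 0.052 (from 0.011 without responder 10 to 0.094 without responder 5) and 0.15 (from 0.11 without responder 9 to 0.23 without non-responder 2), and counts may be split among them.

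The receptors of TRAIL, RANK ligand and TWEAK follow. Tnfrsf10b, the TRAIL death receptor, had 27.2, 29.7, 29.6, 29.5 and 28.5 CPM in responders and 26.8, 32.2, 28.3, 29.9 and 27.0 CPM in non-responders. Its groups overlapped, with a log2 fold change of 0.0016 (SE 0.06, adjusted p = 0.998), from -0.024 without non-responder 1 to 0.045 without non-responder 2. Tnfrsf11a (RANK) had 26.6, 21.5, 25.5, 21.7 and 24.4 CPM in responders and 27.9, 22.3, 24.2, 27.7 and 26.2 CPM in non-responders. The groups again overlapped, with a log2 fold change of -0.10 (SE 0.081, adjusted p = 0.762), from -0.15 without non-responder 2 to -0.06 without responder 9. Tnfrsf11b, the soluble decoy osteoprotegerin, had 3.5, 4.44, 4.14, 5.3 and 4.07 CPM in responders and 4.93, 2.82, 3.07, 3.61 and 3.37 CPM in non-responders. Tumor 11 was highest, and the log2 fold change of 0.27 (SE 0.16, adjusted p = 0.688), from 0.18 without responder 11 to 0.42 without non-responder 1, did not pass. Tnfrsf12a, the receptor with the highest level per kb, had 214, 205, 218, 227 and 209 CPM in responders and 205, 214, 210, 224 and 201 CPM in non-responders. It varied little, with a log2 fold change of 0.026 (SE 0.044, adjusted p = 0.905), from 0.0092 without responder 11 to 0.053 without non-responder 6. The remaining 8 receptors had log2 fold changes from -0.13 (Tnfrsf25, the receptor of Tnfsf15) to 0.53 (Tnfrsf13c, the BAFF receptor of B cells, on 3 to 13 counts per tumor), of which Tnfrsf25 ran from -0.28 without responder 10 to -0.039 without responder 9. Cd27, a costimulatory receptor of T cells, had 0.18 (SE 0.26), from -0.025 without responder 11 to 0.38 without responder 5. Cd40, its counterpart on antigen-presenting cells, had 0.17 (SE 0.16), from 0.069 without non-responder 2 to 0.26 without non-responder 3.

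**Figure D4:**
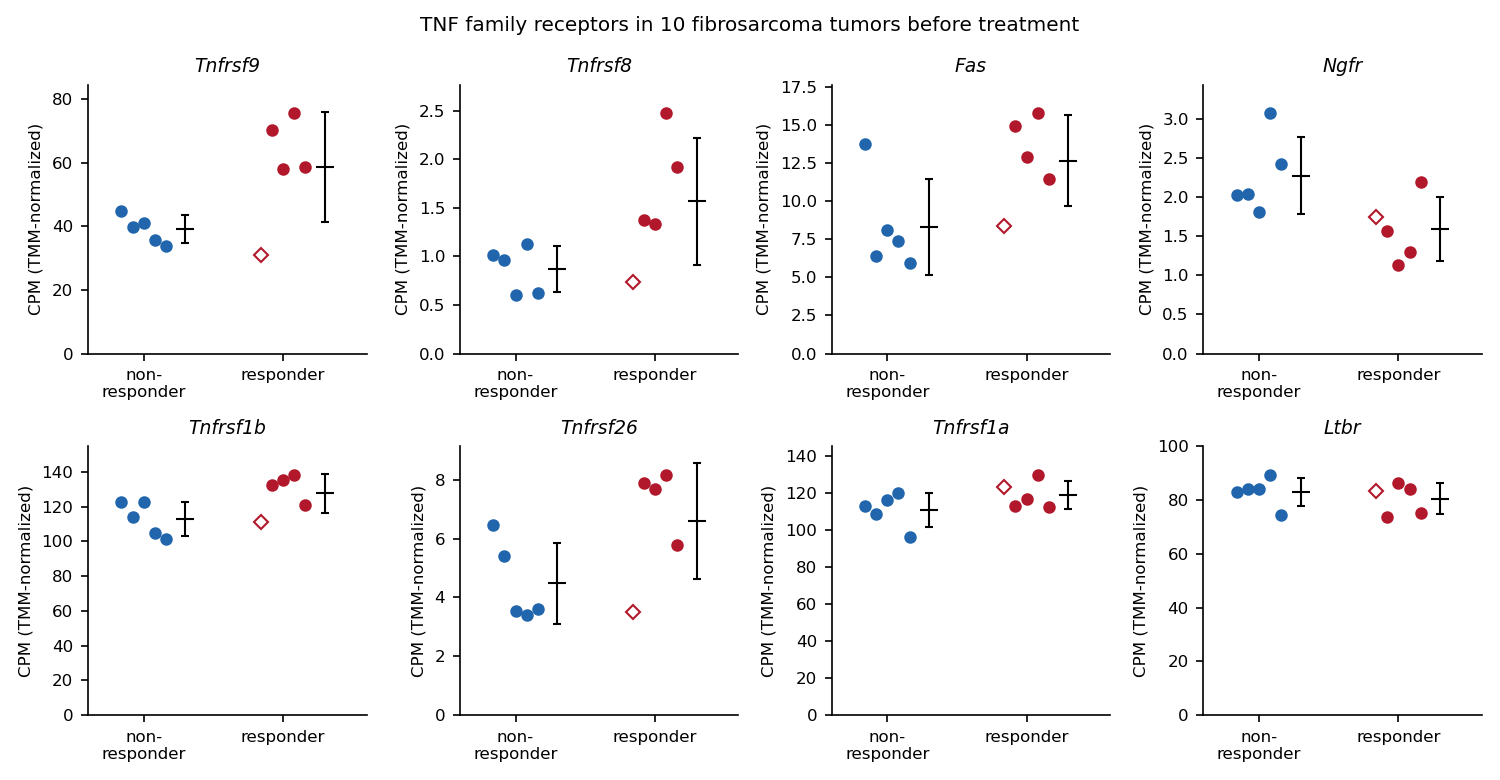
TMM-normalized CPM of 8 receptors in each tumor, with non-responders in blue, responders in red, responder 5 as an open diamond, and mean ± SD beside each group (n = 5). For Tnfrsf9 the other 4 responders lie between 58.1 and 75.5 CPM, above the 33.9 to 44.9 CPM of non-responders, and responder 5 lies below both.

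Without responder 5, 5 members had groups that did not overlap, Tnfsf18, Lta, Fasl, Tnfrsf9 and Tnfrsf8, against 4.73% of features (2.12% with responders higher and 2.61% lower). In that fit 6 of 14 ligands and 6 of 23 receptors had an unadjusted p under 0.05 with higher means in responders (6.84% of features), and 2 receptors with lower means (6.79%). The median log2 fold change was 0.35 for ligands and 0.16 for receptors. The tumor left out was singled out for its low lymphocyte genes. It was the lowest responder for Lta, Fasl, Tnfrsf9 and Tnfrsf8. Leaving it out therefore favors a difference in these genes, and the higher counts are a description. Responder 5 was the lowest responder in 18 of 37 members, and responder 11 the highest of all 10 tumors in 18.

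Lymphocyte markers varied over tumors beside these members. T cell markers (11 of 12 found, the most abundant Lck) summed to 26.2, 60.1, 62.0, 74.9 and 50.3 CPM in responders and 59.3, 27.0, 37.0, 44.3 and 35.8 CPM in non-responders. Responder 5 was lowest and responder 11 highest, and non-responder 1 was among the responders. All 11 had a log2 fold change above 0 (median 0.50), 1 of them with an unadjusted p under 0.05. NK cell markers summed to 46.7, 175, 194, 312 and 176 CPM in responders and 97.4, 41.7, 58.4, 94.5 and 42.6 CPM in non-responders. Of 11 markers 8 passed the filter, all 8 with a log2 fold change above 0 (median 0.94) and 7 with an unadjusted p under 0.05, and Klra8 was at 0. Of all features, 48.6% had a log2 fold change above 0, and 4.2% had an unadjusted p under 0.05 with higher means in responders. Gzmb, a granzyme that cytotoxic T cells share, was the most abundant, with 19.3 to 108 CPM in responders and 14.6 to 30.6 CPM in non-responders, so that responder 5 lay within the range of non-responders. Gzma, Gzmb and Prf1, which cytotoxic T cells share, made up 81.1% to 91.8% of the sum. The other NK cell markers summed to 7.77, 20.8, 21.6, 25.7 and 17.1 CPM in responders and 14.9, 6.68, 10.7, 13.9 and 8.06 CPM in non-responders. Ncr1, the defining receptor of NK cells, had 1.75, 5.63, 6.56, 8.2 and 4.83 CPM in responders and 3.87, 1.68, 2.32, 4.38 and 2.5 CPM in non-responders. The 4 responders other than tumor 5 were above all non-responders for Ncr1, as they were for Tnfrsf9, Lta, Fasl and Tnfrsf8. Tnfrsf9 alone ran from 30.9 to 75.5 CPM, about the range of the summed T cell markers, with no scaling for transcript length. Which cells of the tumor pieces expressed Tnfrsf9 was not tested. The part of lymphocyte content in these results was not tested either.

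**Figure D5:**
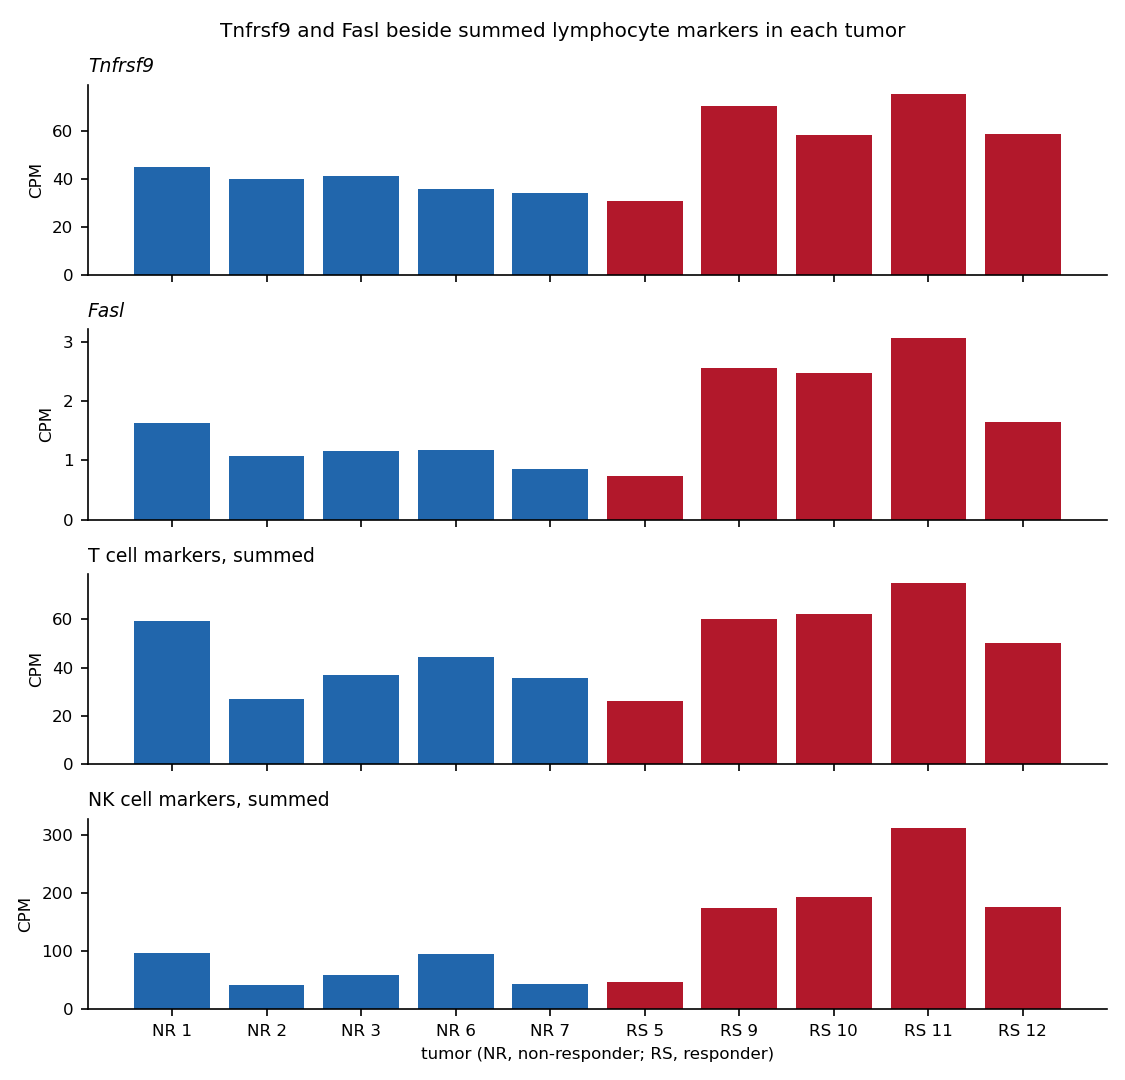
TMM-normalized CPM in each tumor (bars) of Tnfrsf9, Fasl, the summed T cell markers and the summed NK cell markers, with non-responders (NR) in blue and responders (RS) in red. Responder 5 has the lowest bar for Tnfrsf9, Fasl and the T cell markers, and responder 11 the highest in all 4 panels.

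Markers of other cell types were also summed. Macrophage markers (most abundant C1qa) ran from 1422 to 2067 CPM with 10 of 11 log2 fold changes above 0, and neutrophil markers (Csf3r) summed to between 16.1 and 53.6 CPM with a median log2 fold change of 0.66 and 6 of 6 above 0 among those past the filter, while Ly6g and Ngp of the 8 listed, at 0 to 2 counts per tumor, did not pass. Dendritic cell markers (Itgax) ran from 52.8 to 84.7 CPM with 4 of 8 above 0, and plasma cell markers (Sdc1) from 336 to 396 CPM with 2 of 5 above 0. That sum was almost all Sdc1 (171 to 218 CPM) and Xbp1 (154 to 182 CPM), which other cells also express, while Jchain ran from 0.163 to 1.44 CPM and Mzb1 did not pass the filter. Mesenchymal markers (Vim) ran from 12990 to 14851 CPM with 2 of 8 above 0, and epithelial markers (Cdh1) from 8.82 to 15.6 CPM with 3 of 3 above 0. Endothelial markers (Pecam1) ran from 154 to 210 CPM with 1 of 8 above 0. Muscle markers (Acta1, 73.4 to 208 CPM in sum) and adipocyte markers (Fabp4, 32.4 to 82.8 CPM in sum) had 0 of 8 each above 0. B cell markers (Fcer2a) summed to between 3.11 and 4.0 CPM, with 3 of 5 above 0 and with Ms4a1 and Cr2 not past the filter. At an unadjusted p under 0.05, macrophage, neutrophil, dendritic cell and epithelial lists each had 1 marker higher in responders, beside 4.2% of all features. Lower in responders were 3 endothelial, 2 mesenchymal, 2 muscle, 2 adipocyte, 1 plasma cell and 1 macrophage markers, beside 4.0% of all features. With all 10 tumors no marker of any list was called. The part of these cell types in the results was not tested.

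Ligands were set beside their receptors in 22 pairs, of which 17 had both partners tested. Both log2 fold changes were above 0 in 12 pairs. Both had an unadjusted p under 0.05 in 2 pairs, Fasl with Fas and Lta with Tnfrsf1b. Some members recur in several pairs. On their own, 12 of 14 ligands and 17 of 23 receptors were above 0, and 5 ligands and 6 receptors had an unadjusted p under 0.05. The pair counts were not compared with what these single counts would give, so they do not show pairing. In the genome, 21 members lie in 8 clusters with gaps of at most 500 kb. Of these clusters, 4 held 0 members with an unadjusted p under 0.05, 2 held 1 (Ltb, Tnf and Lta, and Tnfrsf26, Tnfrsf22 and Tnfrsf23) and 2 held 2 (Tnfsf4, Tnfsf18 and Fasl, and Tnfrsf1b and Tnfrsf8), beside 8.21% of all features.

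Downstream of the receptors, 28 signal transducers were measured, and 15 had a log2 fold change above 0 (median 0.030), 0 of them called, 3 with an unadjusted p under 0.05 higher in responders and 2 lower. Over all features, 48.6% had a log2 fold change above 0, 4.2% met this limit with higher means in responders and 4.0% with lower. Birc3, an inhibitor of apoptosis that NF-κB induces, had 35.0, 45.8, 43.5, 38.4 and 39.7 CPM in responders and 38.4, 32.8, 34.7, 32.0 and 30.6 CPM in non-responders. Responders 9, 10 and 12 exceeded all non-responders, with a log2 fold change of 0.26 (SE 0.08, adjusted p = 0.580). Traf1, an adaptor that binds 4-1BB and CD30, had 40.4, 55.5, 52.4, 57.4 and 48.9 CPM in responders and 47.9, 43.2, 41.7, 39.9 and 33.7 CPM in non-responders. Responders 9, 10, 11 and 12 were above every non-responder and responder 5 was within the range of non-responders, with a log2 fold change of 0.30 (SE 0.10, adjusted p = 0.580). Rnf31, the catalytic subunit of the linear ubiquitin ligase, had a log2 fold change of 0.22 (SE 0.087, adjusted p = 0.586). Lower means in responders were found for the adaptor Traf4, -0.14 (SE 0.059, adjusted p = 0.591), for Tab3, a partner of the kinase TAK1, -0.18 (SE 0.082, adjusted p = 0.607), and for the deubiquitinase Otulin, -0.068 (SE 0.05, adjusted p = 0.741).

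Of 7 enzymes that shed or process family proteins, 4 had a log2 fold change above 0, beside 48.6% of all features, and 0 were called. Only 1, Adam17, had an unadjusted p under 0.05, with a higher mean in responders, as did 4.2% of all features. Adam17, the protease that releases soluble TNF, had 110, 141, 123, 121 and 121 CPM in responders and 116, 103, 114, 98.9 and 101 CPM in non-responders. Responders 9, 10, 11 and 12 were above all non-responders, with a log2 fold change of 0.21 (SE 0.066, adjusted p = 0.580). Its trafficking factor Rhbdf2 had 0.14 and the proprotein convertase Furin 0.078. On the lower side were Sppl2b with -0.08, Rhbdf1 with -0.078 and Adam10 with -0.048 as log2 fold changes.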

How the data were processed

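RNA-seq of 10 tumors was used, 5 responders and 5 non-responders. Per the methods and the submitters' processing notes, the authors estimated transcript abundances with Kallisto on GRCm38 (mm10) and summed them to genes with tximport. What they deposited is a table of estimated counts, 1 row per gene, scaled to neither depth nor transcript length. The annotation release and strand setting are not given in the sources used here. Besides Tnfrsf9, the members Tnfsf9, Tnfsf12, Tnfsf13, Tnfsf13b, Cd27, Tnfrsf13b, Tnfrsf19, Tnfrsf22, Tnfrsf23 and Tnfrsf26 overlap another gene on the opposite strand. Reads of those overlaps may likewise not be told apart. Rows of 1 name were summed (44 repeated names), 9580 rows without a name were kept, and values were rounded.

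Features above the CPM minimum used in the methods for another set of samples, a time course, 5.86 to 11.4 estimated counts depending on the tumor, in at least 3 tumors were kept (15767). They were tested with edgeR 4.0.16 (quasi-likelihood, TMM, Benjamini-Hochberg adjustment over all features, threshold 0.05) in R 4.3.3. The common biological coefficient of variation was 10.4%. DESeq2 1.42.0, limma 3.58.1, other scalings and filters, and leaving out each tumor were alternatives. The SE was obtained by dividing the size of the log2 fold change by the root of F. On simulated counts for these samples and 15590 genes, 85% of 2-fold and 99% of 4-fold changes were recovered. Of 200 changed genes 184 were recovered, and 8 unchanged genes were also called. With nothing changed, 0 were called. Simulated tumors of a group differed only by depth and by noise drawn for each gene apart, so none stood apart over many genes as responder 5 did. Recovery was pooled over genes of all levels and is not given for low-count members such as Lta and Tnfsf18. These figures are therefore not the power of the real comparison, where Gzma had a log2 fold change of 1.82 (adjusted p = 0.580 in edgeR's test). No 2 tumors agreed within sampling noise (45 pairs).

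Values by tumor are given for Tnf, Lta, Ltb and their receptors, for the 6 members of each class with the smallest p and their partners, and for the 3 with the highest level per kb. Of each pathway list, the 3 genes of smallest p on the higher and the lower side are named, and of each marker list the most abundant gene. Ncr1 and the other genes named beside these were chosen after their values were seen. Members and lists were chosen with earlier results of these data known. Lengths and coordinates are from GENCODE vM21. Tnfrsf4 and Tnfrsf18 were not members by the rule.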

Additional observations from a re-analysis of the deposited data

Results flagged for a closer look

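In responders, Tnfsf11 (RANK ligand) was at 0.844 CPM in responder 12, against 1.43 to 1.71 CPM in the other 4, a gap that passed Dixon's test at the 95% level. In non-responders, Tnfsf13b (BAFF) was at 8.25 CPM in non-responder 3, against 4.47 to 5.02 CPM in the other 4, which also passed Dixon's test. Without that tumor the log2 fold change of Tnfsf13b was 0.31 in place of 0.12. In all, 74 sets of 5 tumors were looked at, and chance marks about 1 in 20 such sets, or 3.7 here, so that 2 is no more than chance gives.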

How the results depend on the processing

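Depth limits Tnfsf18 (1 to 11 counts per tumor) and Tnfrsf13c (3 to 13) most, then Tnfsf4 (7 to 38), Tnfrsf19 (5 to 42), Tnfsf11 (11 to 46) and Lta (5 to 49). Of 109 alternative values of the counts and medians, 94 were classed as kept and 15 as moved. Kept is a loose class here. It includes a ligand count of 7 against 5, receptor counts of 4 and 8 against 6, and a receptor median of 0.069 against 0.104. DESeq2 called 1 feature, Col6a2 (adjusted p = 0.0477). Leaving out each tumor in turn gave 0 to 9 called features and 0 to 1 called members, the highest of both without responder 5 (Tnfrsf9). Without responder 9, 10 or 12, Tnfsf18 did not pass the filter and was not tested. Ligands with an unadjusted p under 0.05 numbered 3 with CPM above 1 in at least 5 tumors, which tests fewer ligands, and 3 to 7 with each tumor left out (3 without responder 9, 10 or 11 or non-responder 7, 7 without non-responder 1). Receptors numbered 2 to 8 (2 without responder 11, 3 without responder 10 or non-responder 7, 8 without responder 5 or non-responder 1), where 9.78% of all features met the limit without non-responder 1 and 13.6% without responder 5. Members with groups apart numbered 1 to 5, with 5 without responder 5 (4.73% of all features, against 0.926% with all tumors), 4 without responder 12 (1.48%), 3 without non-responder 1 (2.41%) and 2 without non-responder 3 (2.57%). In the fits where Tnfsf18 did not pass the filter, it stayed in these counts but not in the shares. The median log2 fold change ran from 0.24 to 0.43 for ligands and from 0.07 to 0.16 for receptors. The sign of the log2 fold change turned in at least 1 alternative for 5 of the 37 members tested: Tnfsf12 (-0.064 to 0.077), Tnfrsf10b (-0.024 to 0.045), Eda2r (-0.031 to 0.10), Cd27 (-0.025 to 0.38, negative without responder 11) and Tnfsf13 (-0.12 to 0.0098). Apart from removed tumors, the cause was not tested. No paired analysis was possible because tumor numbers are unique across the groups.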
